A study of Mus musculus with 18 samples.

Results

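Reads from the 129 and the Cast copy of each autosomal gene were compared within unstimulated CD23+ B cells from mouse spleen. The mice were female F1 animals of 129S1 and Cast parents with the genotype Xist+/-, and the labels state that the Cast X chromosome was the inactive one in all of them. The 3 naive samples received no treatment, and 3 further samples of the same genotype, used here as a second look at the same genes, had spent 24 h in culture with CpG DNA at 1 µM. The Xist deletion was therefore carried by every sample compared. The labels give neither the direction of the cross nor whether the samples came from separate or pooled animals, so p-values measure the spread between these samples, which may be technical, and the strain of an allele and the parent it came from cannot be told apart. The other 12 of the 18 samples of the series belong to another cross and are not analysed here.

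Each sample came with 2 tables of read counts, one for the 129S1 annotation and one for the Cast annotation. A gene entered the comparison when its name was used once in each annotation, on the same autosome, and when it had at least 30 reads over both tables in each of the 3 naive samples. This left 7914 genes of 27326 matched autosomal genes, of which 12642 had no read in any naive sample. Over both alleles and the 3 samples, the median tested gene had 666 reads.

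An F1 hybrid carries both parental genomes in every cell, so both copies of a gene see the same transcription factors, signals and cell mixture, and an unequal number of transcripts from them points to a difference that lies on the chromosome itself. Such differences are known to arise from variants in promoters, enhancers and transcript ends, from variants that change splicing or RNA stability, and from imprinting. Reads can be assigned to an allele only where they cover a strain variant, and a read from a gene with near-identical copies, or from a gene model that is incomplete in 1 strain, can be lost or misplaced on 1 side only.

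Gene reads ran from 1987266 to 2375717 in the 129 tables and from 2465073 to 2699606 in the Cast tables. Over the tested genes, 52.0%, 52.7% and 53.5% of allele reads were Cast in naive replicates 1, 2 and 3, above 50% in 3 of 3 samples (two-sided exact sign-flip permutation p = 0.25, the smallest that 3 samples allow). On the X chromosome the Cast share was 11.6%, 14.3% and 14.2%, the direction that the labelled inactive Cast X gives. Summed B cell markers (8 of 9 matched, none at 0) stood at 7122 to 8958 CPM (reads scaled to library size), T cell markers at 30.3 to 48.3 and NK cell markers at 7.13 to 12.0. Macrophage markers (12 of 12 detected) summed to 5840, 2704 and 3578 CPM in replicates 1 to 3, highest in replicate 1. In such bulk samples fewer cells of a type and less RNA per cell cannot be told apart.

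Alleles differed for many autosomal genes. In edgeR's quasi-likelihood test with a term for each sample, 1816 of 7914 genes (22.9%) passed a Benjamini-Hochberg adjusted p of 0.05, 1118 with more Cast reads (14.1%) and 698 with more 129 reads (8.82%). The ratio was at least 2-fold in the same direction in each of the 3 samples for 837 of them (10.6% of tested genes), 563 toward Cast (7.11%) and 274 toward 129 (3.46%). These 837 genes are called 2-fold genes in what follows. The other 979 called genes had smaller or less even ratios, 555 toward Cast and 424 toward 129. Many genes lay near equality, and 3073 genes (38.8%) had a fitted log2 ratio between -0.25 and 0.25. The median size of the log2 ratio was 0.36 over all genes. The median log2 ratio of Cast over 129 was 0.12 and 60.5% of genes had more Cast reads. When that general shift was removed by TMM factors, which moved the alleles by 0.11 to 0.12 on the log2 scale, the called genes split into 934 toward Cast and 919 toward 129. With each table scaled to its own total they split into 871 and 1037. The 2-fold genes were 560 and 275 with TMM factors and 556 and 275 with own totals. The 2-fold rule used unscaled counts in every fit, so scaling could change these numbers only through the adjusted p. Without replicate 2 the count of called genes was 1021, and it was 1469 without replicate 1 and 1283 without replicate 3.

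The 2-fold gene toward Cast with most reads was Sorl1, a sorting receptor of the endosome. Its 129 reads were 1911, 971 and 1820 and its Cast reads 12720, 6115 and 11894 in replicates 1 to 3. Replicate 2 was lower on both alleles, and the Cast share stayed at 86.7% ± 0.327 (SD, n = 3; log2 ratio 2.70, SE 0.04, edgeR adjusted p = 0.00013). Toward 129 the 2-fold gene with most reads was Cfl1, which encodes the actin-severing protein cofilin. It had 6571, 7014 and 5203 reads from 129 and 770, 832 and 613 from Cast, a Cast share of 10.5% ± 0.0577 (SD, n = 3; log2 ratio -3.08, SE 0.05, edgeR adjusted p = 0.00013). Both genes were picked under the 2-fold rule, which requires the alleles to differ in the same direction in every sample. Of the 31-base words in Cfl1 transcripts, 13.2% also occurred in transcripts of other genes, a limit that is taken up below.

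B cell surface proteins included the lowest ratio of Cast over 129 among named 2-fold genes. This ranking took genes with at least 10 reads on each allele in every sample and left out Gm and Rik names. Cd24a, a glycosylphosphatidylinositol-anchored protein of developing and mature B cells, had 4968, 6279 and 4001 reads from 129 and 33, 37 and 49 from Cast. The 129 count exceeded the Cast count by about 127-fold over the 3 samples (log2 ratio -6.98, SE 0.31, edgeR adjusted p = 0.00187). Cd38, an enzyme of the cell surface that consumes NAD, was also higher from 129, with 2521, 2202 and 1941 reads against 979, 910 and 783. Its Cast share was 28.7% ± 0.640 (SD, n = 3), and it was 15.9% ± 1.33 in the stimulated samples. Both genes lay toward 129 in every naive sample, as the 2-fold rule requires.

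Receptors that place B cells in lymphoid tissue were among the genes toward Cast. Cxcr5, which guides B cells into follicles, had 305, 344 and 272 reads from 129 and 1716, 2181 and 1424 from Cast (Cast share 85.1% ± 1.22, SD, n = 3; log2 ratio 2.51, SE 0.08, edgeR adjusted p = 0.00043). S1pr1, the receptor through which lymphocytes leave tissue, had 468, 731 and 267 reads from 129 and 1770, 2349 and 1089 from Cast, a Cast share of 78.6% ± 2.07. Fcer2a encodes CD23, the antigen of the sort, and it was called toward Cast with a Cast share of 61.7% ± 1.12. Ccr7, the receptor for chemokines of the T cell zone, had a Cast share of 49.2% ± 5.33 and was not called. Of 17 tested surface and homing receptors 8 were called (47.1%, against 22.9% of all tested genes), 4 in each direction. Of the 17, 4 were 2-fold genes (23.5%, against 10.6%). The median log2 ratio of the 17 was 0.09, against 0.12 over all tested genes.

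The Ly6 family, small lipid-anchored surface proteins, had 2 tested members, and both were 2-fold genes toward 129, where 3.46% of all tested genes were. Of 8 listed members, only 3 were matched by name between the annotations. Ly6e, which lies on chromosome 15, had 6165, 5918 and 5159 reads from 129 and 588, 587 and 410 from Cast, a Cast share of 8.36% ± 0.882 (SD, n = 3; edgeR adjusted p = 0.000278). Ly6d had 209, 173 and 174 reads from 129 against 3, 2 and 2 from Cast. Since the Cast reads of Ly6d were at or under a floor of 3 reads per sample, the 129 allele is given as at least 61.8-fold higher, the summed 129 reads over that floor.

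**Figure D1:**
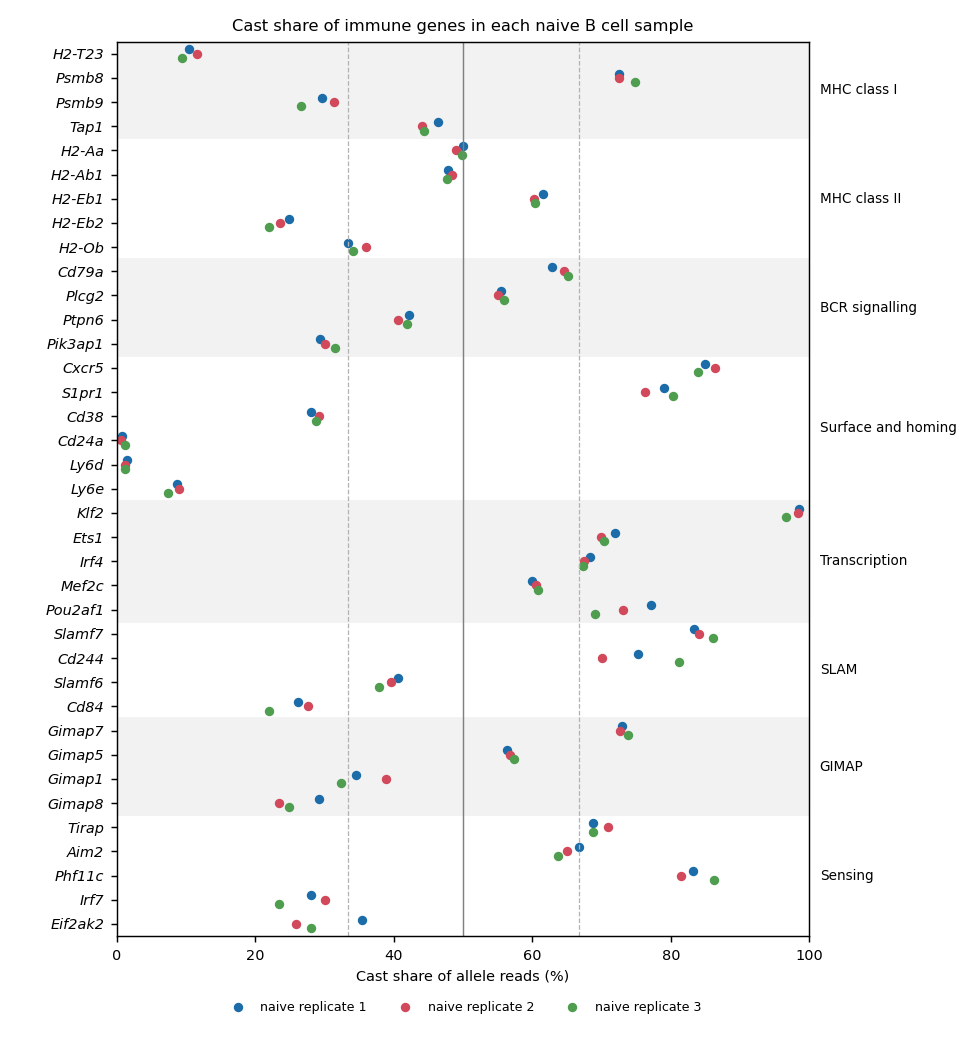
Cast share of allele reads (x axis, %) for 37 immune genes (y axis) in naive replicates 1 to 3 (coloured points), grouped by function. The solid line marks equal reads and the dashed lines a 2-fold ratio. The 3 points of each called gene lie on the same side of 50, Cd24a, Ly6d and Ly6e near 0 and Klf2 near 100, while H2-Aa and H2-Ab1 sit next to 50.

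In the B cell receptor pathway, which turns antigen binding into calcium and NF-kB signals, the median log2 ratio of 23 tested genes was 0.13, 3 were called toward Cast and 5 toward 129 (34.8%, against 22.9% of all tested genes), and 1 was a 2-fold gene (4.35%, against 10.6%). That gene was Pik3ap1, the adaptor BCAP that links the receptor complex to PI3-kinase, with 1559, 1654 and 1227 reads from 129 and 647, 709 and 565 from Cast (Cast share 30.3% ± 1.13, SD, n = 3; log2 ratio -1.20, SE 0.06, edgeR adjusted p = 0.000854). Cd79a, a signalling chain of the receptor, was called toward Cast at 64.2% ± 1.18, with 12.2% of its transcript words in another gene model, whereas its partner Cd79b was at 48.9% ± 1.31 and was not called. The phosphatase gene Ptpn6 was called toward 129 with a Cast share of 41.6% ± 0.822, and it was not called without replicate 2.

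B cell transcription factors with a 2-fold ratio all lay toward Cast, 4 of 19 tested (21.1%, against 7.11% of all tested genes). Of the 19, 8 were called (42.1%, against 22.9% of all), and 7 of the 8 lay toward Cast. Of all called genes 61.6% lay toward Cast, and 50.4% with TMM factors. The median log2 ratio of the 19 was 0.15. Klf2, a regulator of lymphocyte trafficking, had 7, 5 and 16 reads from 129 and 464, 304 and 457 from Cast (log2 ratio 5.48, SE 0.29, edgeR adjusted p = 0.0011). Ets1 had 1767, 2055 and 1653 reads from 129 and 4518, 4766 and 3914 from Cast, a share of 70.7% ± 1.06 (SD, n = 3). Irf4, needed for plasma cell formation, was at 67.7% ± 0.554, and the coactivator gene Pou2af1 at 73.1% ± 4.01. Ikzf3 was the factor called toward 129, at 43.7% ± 1.59. Pax5, Ebf1 and Irf8, with Cast shares of 48.0% ± 1.21, 54.0% ± 2.33 and 50.4% ± 0.315, were not called.

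Antigen presentation genes of chromosome 17 lie close together, yet their ratios went both ways. H2-Aa, the alpha chain of the MHC class II molecule that presents peptides to T cells, was the most heavily read of them, with 55406, 62608 and 47739 reads from 129 and 55405, 60167 and 47320 from Cast, and its share of 49.6% ± 0.522 (SD, n = 3) was not called. H2-Ab1, the beta chain, was called at 47.9% ± 0.404, a log2 ratio of -0.12 whose call was lost without replicate 1, without replicate 3, without the sample term and with DESeq2 (adjusted p = 0.0707, 0.135, 0.397 and 0.473). It had 249982 allele reads over the 3 samples.

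Over 10 tested class II genes the median log2 ratio was -0.12, with 1 called toward Cast and 3 toward 129 (40%, against 22.9% of all tested genes), and 1 of the 10 was a 2-fold gene, a share near the 10.6% of all. H2-Ob, part of a protein that restrains peptide loading, had 9649, 11078 and 8478 reads from 129 and 4819, 6232 and 4388 from Cast (log2 ratio -0.93, SE 0.05, edgeR adjusted p = 0.000903). H2-Eb2 was a 2-fold gene toward 129 at a Cast share of 23.4% ± 1.41, while its neighbour H2-Eb1 was called toward Cast at 60.7% ± 0.709.

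Class I presentation had 3 of 11 tested genes at 2-fold (27.3%, against 10.6% of all tested genes), and the median log2 ratio of the 11 was 0.17. Only 13 of 29 listed class I genes were matched by name between the annotations. H2-T23 encodes the class I molecule Qa-1, a ligand of NK cell receptors, and had 511, 672 and 427 reads from 129 and 59, 88 and 44 from Cast (Cast share 10.4% ± 1.12, SD, n = 3; log2 ratio -3.10, SE 0.11, edgeR adjusted p = 0.00043). Psmb8 and Psmb9 encode catalytic subunits of the immunoproteasome, and their ratios were opposite. Psmb8 had 587, 739 and 443 reads from 129 and 1551, 1946 and 1313 from Cast, and Psmb9 had 484, 605 and 390 from 129 and 204, 276 and 141 from Cast. The Cast shares were 73.3% ± 1.31 and 29.2% ± 2.42. Of H2-T23 transcript words, 24.5% occurred in other genes.

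Families of immune receptors and GTPases held neighbours with opposite ratios. Of 8 tested SLAM family genes, which encode receptors for contact between lymphocytes, 4 were 2-fold genes, 3 toward Cast and 1 toward 129 (37.5% and 12.5%, against 7.11% and 3.46% of all tested genes), with a median log2 ratio of 0.21. Slamf7 had 40, 52 and 29 reads from 129 and 201, 275 and 180 from Cast, and Cd244 had 314, 232 and 151 against 959, 543 and 650. Cd84 lay the other way, with 304, 428 and 267 reads from 129 and 108, 163 and 75 from Cast (Cast share 25.2% ± 2.95, SD, n = 3; edgeR adjusted p = 0.00234). The call of Cd244 was lost without replicate 1.

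The GIMAP genes of chromosome 6, GTPases that support lymphocyte survival, were called for 6 of 7 tested members (85.7%, against 22.9% of all tested genes), 2 toward Cast and 4 toward 129, with a median log2 ratio of -0.25. Gimap7 had a Cast share of 73.1% ± 0.658 and Gimap8 one of 25.8% ± 3.05 (SD, n = 3 each), the pair that reached 2-fold. Gimap1 stood at 35.2% ± 3.27 and Gimap5 at 56.8% ± 0.482, and the call of Gimap5 was lost without replicate 2, without replicate 3, without the sample term and with DESeq2.

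Genes of innate sensing were called in both directions. Of 15 Toll-like receptors and adaptors 6 were called (40%, against 22.9% of all tested genes) and 1 was a 2-fold gene (6.67%, against 10.6%). This was Tirap, an adaptor of the surface Toll-like receptors, with 75, 65 and 54 reads from 129 and 165, 159 and 119 from Cast (Cast share 69.5% ± 1.28, SD, n = 3; edgeR adjusted p = 0.00497). Of 27 interferon-induced genes 9 were called (33.3%, against 22.9% of all tested genes) and 2 were 2-fold genes (7.41%, against 10.6%). These were Irf7, the regulator that amplifies interferon production, at 27.2% ± 3.41, and Phf11c at 83.6% ± 2.44, with 14.5% of its words in other genes. The median log2 ratio was 0.33 over the 15 Toll-like receptor genes and 0.15 over the 27. Eif2ak2, the kinase PKR that senses double-stranded RNA, was called toward 129 at 29.8% ± 4.98 and missed 2-fold in replicate 1, where it had 261 reads from 129 and 143 from Cast.

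DNA sensors of chromosome 1 split as well. Of 14 listed genes of the Ifi200 family, only 2 were matched by name between the annotations. Aim2, an inflammasome sensor, was called toward Cast at 65.1% ± 1.47, and Ifi202b was a 2-fold gene toward 129 with 78, 45 and 71 reads against 18, 15 and 20. Pyhin1, a further member of this gene group, had 1479, 1621 and 1173 reads from 129 and 0 from Cast in each sample, which makes the 129 allele at least 475-fold higher against the floor. Nlrp1a, an inflammasome sensor of chromosome 11, was the reverse, with 0, 0 and 1 reads from 129 and 54, 55 and 49 from Cast.

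Of 6 tested C-type lectin and NK complex receptors, 5 were called (83.3%, against 22.9% of all tested genes). These were 2 toward Cast and 3 toward 129, and 3 of the 6 were 2-fold genes (50%, against 10.6%). Clec4n encodes dectin-2, a fungal receptor of macrophages and dendritic cells, and had 387, 250 and 309 reads from 129 and 7, 8 and 9 from Cast (log2 ratio -5.26, SE 0.21, edgeR adjusted p = 0.000487). Clec12a had 202, 225 and 166 reads from 129 and 7, 9 and 28 from Cast, and its call was lost without replicate 1 and without replicate 2. Clec4a2, an inhibitory lectin of myeloid cells, was a 2-fold gene toward Cast at 72.8% ± 0.684 (SD, n = 3; edgeR adjusted p = 0.00236), and Klra2 was called toward Cast at 68.8% ± 6.68. The calls of both were lost without the sample term, and that of Klra2 also without replicate 1 and without replicate 3. Of the 12 macrophage markers, 2 were 2-fold genes toward 129, where 3.46% of all tested genes were. These were Adgre1 and Fcna, at Cast shares of 28.6% ± 3.14 and 28.6% ± 1.60 (SD, n = 3 each), and C1qa, C1qb and C1qc were not called. These ratios stand beside macrophage marker sums of 2704 to 5840 CPM, and which cells carried the reads was not tested.

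Among 53 genes with 3 or fewer reads on the lower allele in every sample, 32 were read from Cast and 21 from 129. Immunoglobulin lambda segments on chromosome 16 stood at both ends. Iglc1, a lambda constant region, had 4608, 4976 and 3364 reads from 129 and 1, 0 and 2 from Cast, so that 129 was at least 1439-fold higher against the floor. Iglj2, a lambda joining segment, had 0 from 129 in each sample and 1067, 1039 and 821 from Cast, at least 325-fold higher from Cast, and Iglj3p was read only in the 129 tables of these samples, with 238, 197 and 248 reads. Ifi30, a thiol reductase of the antigen-processing compartment, had 0, 3 and 1 reads from 129 and 532, 584 and 446 from Cast. The gene named mt-Nd6 had 0 reads from 129 and 560, 257 and 444 from Cast, and both annotations place that name on chromosome 4.

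The share of reads in named genes differed between the annotations. Genes without a name held 5.10% to 5.67% of gene reads in the 129 tables of the naive samples and 14.8% to 19.7% in the Cast tables. The tested genes held 85.5% to 86.0% of autosomal gene reads in the 129 tables but 76.7% to 81.8% in the Cast tables. How many reads of a tested gene lay in unnamed genes of the other strain was not tested.

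Genes that share sequence with transcripts of other genes were counted apart from the others. For 7715 tested genes, the distinct 31-base words of their GENCODE M21 transcripts were looked up in the transcripts of all genes that do not overlap them. Of 518 genes with at least 10% of their words elsewhere, 157 (30.3%) were 2-fold genes, 89 toward Cast and 68 toward 129, against 663 of 7197 genes (9.21%) with fewer. Among the 30 genes with at least 50% of their words elsewhere, 14 were 2-fold genes. The measure counts any shared word, so it does not tell a near-identical copy from a shorter shared piece. A stretch of coding sequence shows how little separates some pairs of copies. The capitals mark bases that differ between the pair, and each stretch is given on the coding strand of GRCm38.
Gstp2, exon 3, chr19:4041601-4041690, minus strand: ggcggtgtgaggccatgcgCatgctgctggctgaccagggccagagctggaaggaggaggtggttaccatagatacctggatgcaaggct
Gstp1, exon 3, chr19:4037307-4037396, minus strand: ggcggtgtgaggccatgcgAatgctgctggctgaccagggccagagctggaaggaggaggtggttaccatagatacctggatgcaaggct
Hist1h4j, exon 1, chr13:21735129-21735218, plus strand: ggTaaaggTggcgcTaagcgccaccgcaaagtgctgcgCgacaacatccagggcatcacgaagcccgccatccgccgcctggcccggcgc
Hist1h4h, exon 1, chr13:23531148-23531237, plus strand: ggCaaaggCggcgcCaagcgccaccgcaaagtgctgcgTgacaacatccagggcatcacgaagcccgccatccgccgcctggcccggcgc
Tpt1, exon 2, chr14:75845617-75845676, plus strand: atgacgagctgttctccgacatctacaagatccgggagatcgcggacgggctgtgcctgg
Tpt1-ps3, exon 1, chr6:99878247-99878306, minus strand: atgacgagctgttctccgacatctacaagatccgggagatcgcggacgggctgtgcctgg

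Gstp2 and Gstp1, neighbouring genes for enzymes that attach glutathione to toxic compounds, were identical at 618 of 630 coding bases (98.1%). Gstp2 had 145, 177 and 135 reads from 129 and 0 from Cast in each sample, while Gstp1, with 209, 247 and 190 reads in the 129 tables, had no matched Cast entry and was not tested. The histone H4 genes Hist1h4j and Hist1h4h shared 296 of 309 coding bases (95.8%), and the stretch above differed at 4 positions. Hist1h4j had 21, 20 and 42 reads from 129 and 574, 453 and 777 from Cast. Tpt1, a translation-associated tumour protein, and its processed pseudogene Tpt1-ps3 were identical over all 516 coding bases, so that the stretch above carries no capital. Tpt1 had 60, 60 and 96 reads from 129 and 7223, 5787 and 6762 from Cast (log2 ratio 6.54, SE 0.21, edgeR adjusted p = 0.000754). The sequences are of the reference genome, and whether the 129 and Cast genomes carry each copy was not tested.

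Gene families were counted in the same way. Of 66 tested cytosolic ribosomal protein genes, 23 (34.8%) were 2-fold genes, 12 toward Cast and 11 toward 129, and 49 of the 66 had at least 10% of their words elsewhere. The median log2 ratio of the 66 was 0.25 and its median size 1.03, against 0.36 over all tested genes. Rpl7, a protein of the large subunit, had 1692, 1722 and 1513 reads from 129 and 121, 126 and 115 from Cast, a Cast share of 6.85% ± 0.197 (SD, n = 3). Rpl37a of the same subunit, like Rpl7 chosen after its values were seen, lay the other way, with 213, 174 and 200 from 129 and 1423, 1543 and 1461 from Cast. Mitochondrial ribosomal protein genes, whose products have the same task in another compartment, had 2 of 58 at 2-fold (3.45%), with a median size of 0.21. Of the 58, 8 had at least 10% of their words elsewhere.

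Replication-dependent histone genes had 11 of 17 at 2-fold (64.7%), 9 toward Cast, with a median log2 ratio of 1.41. Of the 17, 12 had at least 10% of their words elsewhere. Whether shared words account for the ratios of any family was not tested. Actb, the cytoplasmic actin gene often used as a reference, had 50, 79 and 61 reads from 129 and 6366, 4591 and 4996 from Cast (Cast share 98.8% ± 0.456, SD, n = 3), with 23.5% of its words in other genes. Solute carriers (11 of 127, 8.66%) and Zfp zinc finger genes (16 of 192, 8.33%) were near the 10.6% of all tested genes, and so were oxidative phosphorylation subunits (4 of 52, 7.69%) and RIKEN clone genes (22 of 207, 10.6%). Proteasome subunits had 6 of 32 (18.8%) and predicted gene models with Gm names 30 of 125 (24.0%).

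**Figure D2:**
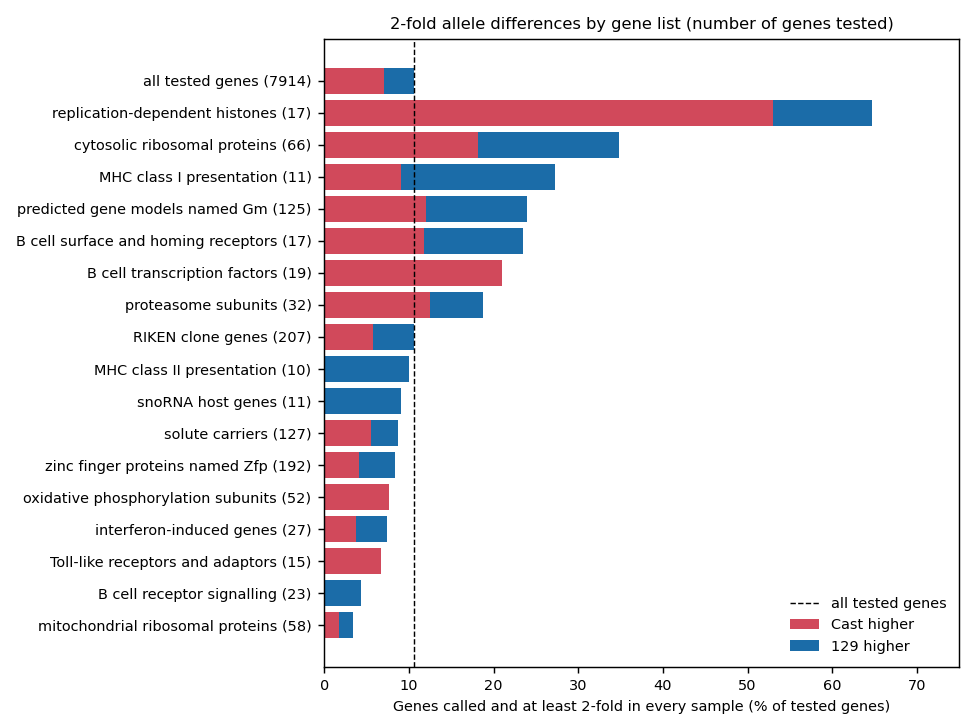
Percent of tested genes that were called and at least 2-fold in every sample (x axis), for gene lists with 10 or more tested genes (number in brackets), in red for Cast higher and blue for 129 higher. The dashed line is all tested genes, 10.6%. Histones (64.7%) and cytosolic ribosomal proteins (34.8%) reach farthest, and mitochondrial ribosomal proteins are at 3.45%.

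Ratios toward Cast also came in runs along chromosomes. Each gene was given a local Cast share, the median share of the 7 tested genes on each side in the order of GRCm38.p6, without the gene itself. It was at least 65%, called raised here, for 463, 570 and 542 of 7813 placed genes in replicates 1, 2 and 3, and at most 35% for 2, 3 and 2 genes. The 226 genes raised in all 3 samples held 141 of the 563 2-fold genes toward Cast and 5 toward 129. That is 62.4% of these genes, where 364 of 6925 genes raised in no sample (5.26%) were 2-fold toward Cast and 251 (3.62%) toward 129. The neighbouring genes that define a run were measured in the same samples, so these counts are a description. Of 17 histone genes 5 (29.4%) were raised in at least 1 sample, and of 66 cytosolic ribosomal protein genes 9 (13.6%). Over all placed genes this share was 11.4%. Chromosome 8 had the highest share of the 19 autosomes, with 122 of 439 tested genes (27.8%) at 2-fold toward Cast, followed by chromosome 9 with 77 of 455 (16.9%).

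On chromosome 8 the longest run went from Ddx49 to Cherp, 49 genes with a median Cast share of 70.5%, 72.8% and 74.4% in replicates 1 to 3, and it contains Klf2, Ifi30 and Jak3. Further runs on this chromosome went from Prosc to Pcm1 (30 genes, 18 of them 2-fold toward Cast) and from Tecr to Dhps (30 genes, 21 of them). Fcer2a lies in a run of 12 genes from Insr to Timm44. On chromosome 9 a run of 29 genes from Dpagt1 to Cadm1 contains Cxcr5, and on chromosome 6 Arhgdib lies in a run of 15 genes from Lrp6 to Eps8. Arhgdib had 1657, 1838 and 1585 reads from 129 and 6614, 7208 and 5950 from Cast. S1pr1, Ets1, Irf4, Cd38, Psmb8 and Psmb9 were in no raised neighbourhood.

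**Figure D3:**
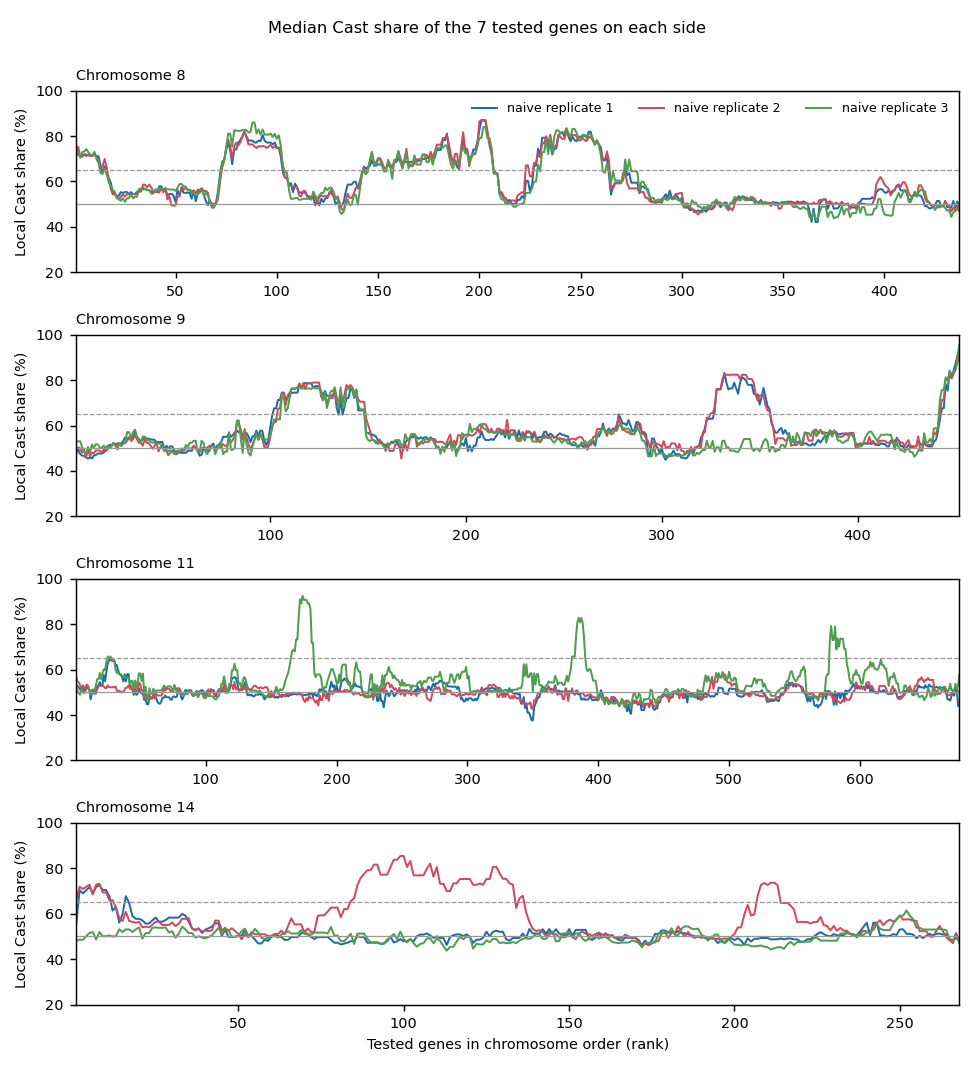
Local Cast share (y axis, %), the median of the 7 tested genes on each side, against the rank of the gene along chromosomes 8, 9, 11 and 14 (x axis) in naive replicates 1 to 3 (coloured lines). The solid line is 50% and the dashed line 65%. The runs of chromosome 8 coincide in the 3 samples, whereas chromosome 11 has runs in replicate 3 alone and chromosome 14 a run of 50 genes in replicate 2 alone.

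Other runs were present in 1 or 2 of the samples. From Wapl to Pabpn1 on chromosome 14, 50 genes had a median Cast share of 77.2% in replicate 2 but 48.0% in replicate 1 and 47.3% in replicate 3. From Bmf to Casc4 on chromosome 2, 28 genes stood at 80.9% in replicate 1 and at 50.6% and 51.7% in the others. Replicate 3 had its own runs, such as G3bp1 to Guk1 on chromosome 11, 18 genes at 89.1% against 49.0% and 48.0%. Replicates 2 and 3 shared a run from Zfp758 to Ift140 on chromosome 17, 32 genes at 76.4% and 75.8% against 53.5% in replicate 1.

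The same runs appeared in the stimulated samples of the same number. Of 118 genes raised only in naive replicate 1, 78.8% were raised in stimulated replicate 1 and 3.39% in each of the other stimulated replicates. For 132 genes raised only in naive replicate 2 the share was 62.1% in stimulated replicate 2 and at most 9.85% elsewhere. For 177 genes of naive replicate 3 it was 76.3% in stimulated replicate 3 and at most 5.08% elsewhere. In these runs the 129 reads were lower and the Cast reads higher in the sample concerned. Genes raised only in replicate 3 took 0.776% of tested reads from 129 and 1.81% from Cast there, against 1.29% and 1.42% in replicate 1. What the same-numbered samples share is not stated in the labels, and the source of the runs was not tested.

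Genes taken one at a time followed the same pattern by sample, partly in the same raised neighbourhoods. Of 5628 genes with at least 100 reads in each naive sample, 423 had 1 sample at least 20 percentage points away from both others, which were within 10 points of each other. The sample apart was higher in Cast share for 250 of them and lower for 173. Of those higher in replicate 1, 2 or 3, 43.7%, 69.2% and 33.9% lay in a neighbourhood raised in that sample. Over all placed genes these shares were 5.93%, 7.30% and 6.94%, so this count overlaps with the runs. Where the sample apart was lower, neighbourhoods raised in the other samples were not counted. Sorted by sample and direction into 6 classes, the median share was 47.8% to 49.4% on the lower side and 78.7% to 82.5% on the higher side. Of 408 such genes with at least 30 reads in each stimulated sample, 396 (97.1%) had the stimulated sample of the same number at least 10 points away in the same direction and 0 in the opposite one. Over all genes with those reads this held for 6.31% to 10.3%. These limits were set after the values had been seen.

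The genes that differed by sample included receptors and adaptors of B cells, named here after their values were seen. Btla, an inhibitory receptor of lymphocytes, had 14096, 11131 and 1668 reads from 129 and 12424, 8813 and 20512 from Cast, so its Cast share was 46.8%, 44.2% and 92.5%. In stimulated replicates 1 to 3 it was 40.6%, 41.3% and 93.0%. Replicate 3 stood apart in both states, and the naive difference was not called (edgeR adjusted p = 0.633). All chromosome 16 genes in the count above had replicate 3 higher. Among them were Cd200, at 28.6%, 29.2% and 86.4% in naive replicates 1 to 3, and Atg3, at 47.2%, 49.8% and 91.5%. Whether they form 1 stretch with Btla was not tested.

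Tlr9, the receptor for CpG DNA used in the stimulation, had 38, 29 and 192 reads from 129 and 284, 291 and 115 from Cast in naive replicates 1 to 3. The Cast allele was higher in replicates 1 and 2 and lower in replicate 3, and stimulated shares were 88.2%, 88.8% and 31.4%. It lies in a chromosome 9 run of 29 genes, Nudt16 to Rbm5, raised in replicates 1 and 2. Cxcr4, a chemokine receptor, had 1861, 668 and 192 reads from 129 and 1218, 358 and 2563 from Cast, with replicate 3 apart. Dars and Mcm6, also on chromosome 1, had replicate 3 apart too, at Cast shares of 99.3% and 97.9%. Other chromosome 1 genes had replicate 2 apart. Apobec3, a restriction factor against retroviruses, had 20, 19 and 25 reads from 129 and 39, 538 and 522 from Cast, with replicate 1 apart and below the minimum of 100 reads used for the count above. Its difference was not called over all 3 samples (edgeR adjusted p = 0.105) but was with replicate 1 left out (0.00118), without the sample term (0.0321) and with DESeq2 (6.02e-05).

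Fcgr2b, the inhibitory Fc receptor of B cells, and its neighbour Fcrla lie in a run of chromosome 1 that was raised in replicate 2. Fcgr2b had Cast shares of 42.6%, 75.4% and 41.5% and Fcrla 51.9%, 77.8% and 53.1% in naive replicates 1 to 3. H2-M3, a class I molecule for bacterial peptides, had 44.0%, 80.5% and 80.0%. Blnk, an adaptor of the B cell receptor, had 45.8%, 44.5% and 74.2%, and Pik3cd, the catalytic subunit of its PI3-kinase, 77.2%, 75.4% and 48.0%. No call was made for these 5 genes over the 3 naive samples.

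**Figure D4:**
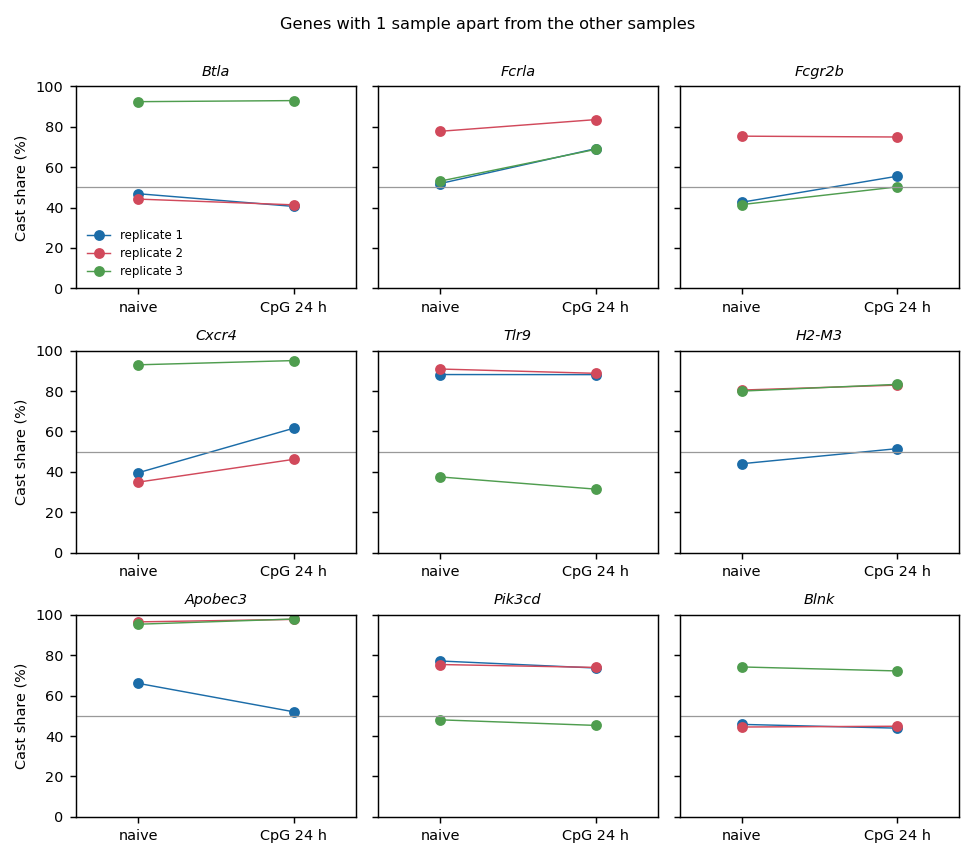
Cast share of allele reads (y axis, %) of 9 genes in naive and CpG-stimulated B cells (x axis), with samples of the same replicate number joined by a line and coloured alike. In each panel 1 replicate stands apart in both states, such as replicate 3 of Btla at 92.5% and 93.0%, and the grey line marks 50%.

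Genes set apart from the runs and from shared words by the limits above were counted separately. These limits do not take out every gene that differs by sample. Of the genes apart and higher in replicate 3, 33.9% lay in a neighbourhood raised there. Among 6318 genes in no raised neighbourhood and with less than 10% of their words elsewhere, 472 (7.47%) were 2-fold genes, 285 toward Cast and 187 toward 129. They include Sorl1, S1pr1, Irf4, Psmb8, Cd38, Cd24a, Pik3ap1 and Ly6e, as well as Lrmp, a membrane protein of the endoplasmic reticulum in lymphocytes. Lrmp had 15, 31 and 17 reads from 129 and 1959, 2813 and 1571 from Cast (log2 ratio 6.66, SE 0.14, edgeR adjusted p = 0.000275), the highest ratio among named genes with at least 10 reads on each allele in each sample. Ptprj, a receptor phosphatase of B cells and macrophages, was among the lowest with a Cast share of 4.24% ± 0.893 (SD, n = 3), but 11.5% of its words lay elsewhere.

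Most of the larger differences were seen again after stimulation. Naive and stimulated samples of the same number shared runs, so they may not be independent. The limits of mapping, copies and annotation also apply in both states, and a repeat cannot tell them from allele differences. The same fit in the 3 stimulated samples called 1703 of 7914 genes (21.5%), and 1137 genes were called in the same direction in both states, 62.6% of the naive calls and 66.8% of the stimulated ones, with 12 in opposite directions. Of the 837 naive 2-fold genes, 586 (70.0%) were 2-fold the same way in stimulated cells, which is 73.9% of the stimulated 2-fold genes, and 1 was 2-fold the other way. The share of naive calls repeated ran from 40.6% without stimulated replicate 2 to 74.7% without naive replicate 2, and it was 47.6% without stimulated replicate 3. Cd24a had a Cast share of 0.475% ± 0.258 (SD, n = 3) in stimulated cells and Lrmp 99.1% ± 0.198, next to 0.819% ± 0.341 and 99.0% ± 0.185 in naive cells.

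**Figure D5:**
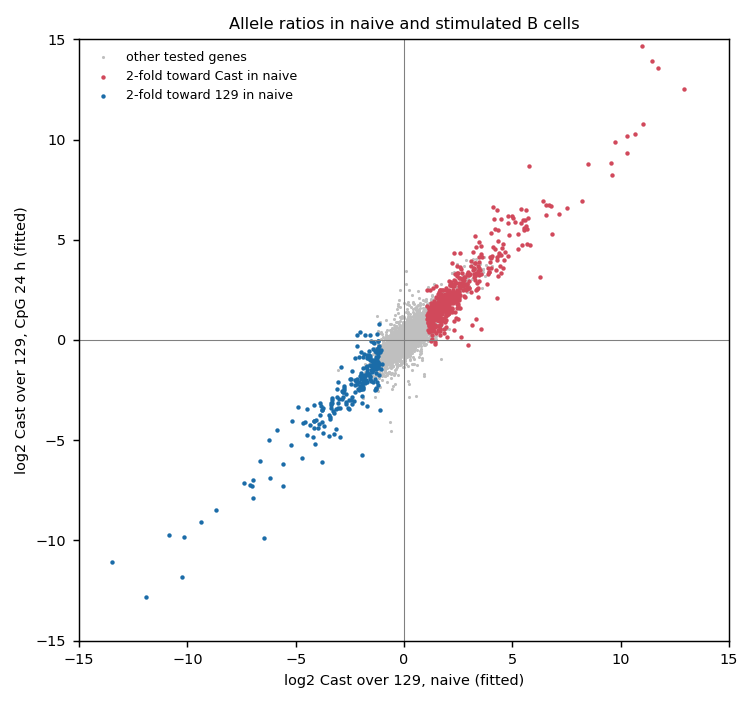
Fitted log2 ratio of Cast over 129 in stimulated samples (y axis) against naive samples (x axis) for 7413 genes with at least 90 reads over the stimulated samples. Red and blue points are the naive 2-fold genes toward Cast and toward 129, and grey points are the other genes. The points lie along the diagonal, 586 of the 837 naive 2-fold genes being 2-fold the same way in both states.

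Imprinted genes, which are read from 1 parental copy in at least some tissues, were few among the tested genes. Whether each listed gene is imprinted in B cells was not tested. Kcnq1ot1, Peg13 and Impact, known as paternally expressed, had Cast shares of 97.8%, 96.6% and 92.2%, with Impact lying in a raised run on chromosome 18. Of 3 genes known as maternally expressed, Igf2r had 3.71%, Ube3a was called toward Cast at 67.1% ± 6.04 (edgeR adjusted p = 0.0242, lost without replicate 2 and without replicate 3), and H13 was not called at 59.4% ± 10.3.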

How the data were processed

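The authors deposited, per sample, 1 table of whole-number read counts per gene for the 129S1 and 1 for the Cast annotation, unnormalized, as the file contents show. The submitters' processing notes name STAR, featureCounts and Subread 2.0.0 and the build mm10; how a read was given to a strain is not given in the sources used here. The RNA was total RNA in a stranded kit, per the labels. Rows without a gene stayed out of library sizes; reads in no annotated gene were 57.9% to 67.1% of aligned reads.

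Genes were matched by name and chromosome and tested with edgeR 4.0.16 (R 4.3.3; glmQLFit with robust estimation, glmQLFTest) on sample and allele, with 1 library size per sample for both alleles, Benjamini-Hochberg adjustment over 7914 genes and a threshold of 0.05. A gene with at most 3 reads on the lower allele in each sample got a bound, its summed reads over a floor of 3 reads per sample. Gene order came from GRCm38.p6, coding sequence and 31-base words from GENCODE M21. Intervals of shares are 95% Wilson intervals that cover counting error only, as PCR copies could not be told from separate molecules.

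Named genes were, outside Gm and Rik names, the 8 highest and 8 lowest ratios with at least 10 reads on the lower allele in each sample, the 5 most-read genes per direction with at most 3 such reads, the 4 most-read per direction, up to 4 per gene list by p, and cell type markers; other named genes were chosen after their values were seen. Members, lists and tests were chosen with earlier results of these data known. Alternatives were other scalings, no replicate block, DESeq2 1.42.0, read minimums of 10 and 100, left-out genes and left-out samples. Some list members are not reported here.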

Additional observations from a re-analysis of the deposited data

Results flagged for a closer look

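Among the 96 genes named by rule, 2 had at least 30 reads in each stimulated sample and lay so that all 3 naive samples were on one side of equal allele reads and all 3 stimulated samples on the other, a difference that was not tested. Over all tested genes with those reads the same held for 221 of 7264 (3.04%). For Tlr1, a Toll-like receptor for bacterial lipopeptides, 40.6% ± 1.56 of naive allele reads and 59.8% ± 1.90 of stimulated ones were Cast (SD, n = 3 each), a difference of 19.2 percentage points. Its 129 reads were 633, 726 and 518 and its Cast reads 409, 489 and 380 in naive replicates 1 to 3, and 18.2% of its transcript words were shared with Tlr6. For Cd300lf, a receptor of myeloid cells, 42.8% ± 5.21 of naive and 70.0% ± 4.69 of stimulated reads were Cast, a difference of 27.2 points. It had 154, 127 and 94 reads from 129 and 114, 118 and 57 from Cast in naive cells, but 19, 15 and 16 from 129 and 39, 46 and 33 from Cast in stimulated cells.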

How the results depend on the processing

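The count of called genes, 1816, was 530 when tested against a minimum log2 ratio of 1, and 1021 to 1469 with 1 naive replicate left out. Without the replicate block it was 1756 (1129 toward Cast and 627 toward 129), and with DESeq2 1364. The count of 2-fold genes, 837, was 831 to 843 with DESeq2, TMM factors, own totals, no replicate block or a non-robust spread. The 2-fold rule used unscaled counts in each of these fits, so scaling could change this count only through the adjusted p. It was 1011 and 563 with minimums of 10 and 100 reads, and 771 to 1005 with 1 replicate left out. After seeing the data, 3 alternatives were added. Without raised neighbourhoods 617 genes were 2-fold, 365 toward Cast and 252 toward 129. Without genes that have at least 10% of their words elsewhere the count was 661, and without both 472.

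The autosomal Cast share, 52.7% ± 0.787 (SD, n = 3), was 51.7% as the median over genes, 54.7% from the whole autosomal tables, 51.6% without raised neighbourhoods, and 52.3% to 53.1% with 1 replicate left out. The share of naive calls repeated in stimulated cells, 62.6%, was 79.5% for 2-fold genes, 64.4% without the replicate block and 40.6% to 74.7% with 1 sample left out. Of 83 named called genes, 7 lost the call with DESeq2, 11 without the replicate block, and 9 to 10 with 1 replicate left out; none reversed in these fits. With at least 30 reads per sample, small ratios in lowly read genes were not detectable at this depth.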
